A study of Homo sapiens with 5 samples.

Results

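The epidermal growth factor receptor (EGFR) network was followed through 10 genes in 3 related human renal cell carcinoma lines. The genes were chosen by name: the receptors EGFR and ERBB2, the ligands AREG, EREG, HBEGF and TGFA, and 4 genes tied to feedback or output of the pathway, PHLDA1, DUSP6, SPRY2 and ERRFI1. All probe sets that the platform table assigns to these symbols were taken, 32 in all. Of 19775 genes with such a probe set, 9 were members, and 8 of these passed the filter on low signal and were tested. AREG is not analysed here.

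RNA came from the parental line SN12C, which the labels call non-metastatic (2 biological replicates), from LM1, lung-metastatic generation 1 (1 array), and from LM2, lung-metastatic generation 2 (2 biological replicates). The labels give no treatment, genotype or culture condition for any line. All values are log2 signals deposited by the authors, and a difference of 1 log2 unit is a doubling. In RNA from a whole culture, fewer cells of a type and less RNA per cell cannot be told apart. The study asked which expression differences go with rising metastatic activity.

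EGFR is a receptor tyrosine kinase of the ERBB family. Its ligands are made as membrane-bound precursors and shed by metalloproteases such as ADAM17, and ligand binding pairs EGFR with itself or with ERBB2, which has no known ligand of its own. The receptors signal through RAS and ERK, and ERK activity induces its own inhibitors: ERRFI1 (also called MIG6) binds and inhibits the EGFR kinase domain, DUSP6 removes phosphate from ERK, and SPRY2 is a Sprouty protein that restrains receptor signalling to RAS. PHLDA1, a protein with a pleckstrin homology-like domain, is induced by ERK signalling in many cells.

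ERRFI1 and PHLDA1 showed the largest differences between LM2 and SN12C among the members, so the sequences just upstream of their transcription starts are shown. Both are RefSeq sequences of GRCh38.p14, the 250 bases before the start on the minus strand of the chromosome, written 5′ to 3′ along the gene. The ERRFI1 window lies at chr1:8026310-8026559 and the PHLDA1 window at chr12:76031777-76032026. Capitals mark matches to the motifs searched.
ERRFI1: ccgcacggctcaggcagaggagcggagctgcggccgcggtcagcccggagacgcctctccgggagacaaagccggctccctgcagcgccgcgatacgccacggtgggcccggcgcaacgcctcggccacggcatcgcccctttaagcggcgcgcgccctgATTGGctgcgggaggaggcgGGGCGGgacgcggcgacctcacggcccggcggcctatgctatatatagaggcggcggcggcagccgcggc
PHLDA1: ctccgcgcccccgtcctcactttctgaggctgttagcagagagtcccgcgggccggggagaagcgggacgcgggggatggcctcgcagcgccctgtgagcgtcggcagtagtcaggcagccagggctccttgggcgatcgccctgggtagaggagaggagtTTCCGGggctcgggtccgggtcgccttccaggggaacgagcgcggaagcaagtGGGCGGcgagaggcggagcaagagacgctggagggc

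The capitals in the ERRFI1 window are a CCAAT box on the opposite strand, 90 to 86 bases before the start, and a GC box (GGGCGG) 70 to 65 bases before it. The PHLDA1 window holds an ETS core (CCGGAA, on the opposite strand) 89 to 84 bases before the start and a GC box 36 to 31 bases before it. The GC box was the motif shared by both windows. It was found in 42.6% of 35116 RefSeq windows of the same length, the CCAAT box in 32% and the ETS core in 14.5%. Neither window held the letters of a cAMP response element (TGACGTCA), an AP-1 site (TGANTCA), a TEAD site (CATTCC), a CArG box or an NF-kappaB site, which were present in 1.65%, 6.57%, 11.9%, 1.16% and 10.8% of all windows. Both strands were searched, overlapping matches were allowed, and a match is a description of letters only.

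The arrays differed in quality and in spread. The LM1 array stood apart in its 3′ to 5′ control ratios: the 3′ probe set of beta-actin was 3.43 log2 units brighter than its 5′ probe set there, and 0.07 to 0.47 brighter on the other 4 arrays. The middle probe set of 18S ribosomal RNA was brightest on SN12C replicate 1 (8.68) and on LM1 (8.49), with 7.43 to 7.56 on the remaining arrays. The SN12C replicates lay a median of 0.282 log2 units apart over tested genes and the LM2 replicates 0.0711. Of 8 measured renal carcinoma markers 7 were at or above the filter of 6.03 log2 units, with means over the list of 10.29, 10.33 and 10.44 in SN12C, LM1 and LM2, while LRP2 was below it. Of the markers of other cells, 2 of 4 measured leukocyte genes (CD3E and CD14), 4 of 5 endothelial genes (PECAM1, VWF, CLDN5 and TEK), 5 of 6 fibroblast genes (COL1A1, COL1A2, COL3A1, DCN and PDGFRB) and 3 of 4 lung epithelial genes (SFTPC, SFTPB and NKX2-1) were also at or above the filter by their mean. PTPRC and LYZ (leukocytes), CDH5 (endothelium), LUM (fibroblasts) and SCGB1A1 (airway epithelium) lay below it on every array. List means in SN12C, LM1 and LM2 were 5.97, 5.96 and 5.91 for leukocytes, 6.36, 6.34 and 6.33 for endothelium, and 7.14, 6.95 and 7.02 for lung epithelium. The mean of 6 fibroblast markers was 7.16 in SN12C, 7.85 in LM1 and 7.95 in LM2, through COL1A2 and COL3A1. The part of these features in the results below was not tested, except where a value without an array is given.

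Among the members, ERRFI1 and PHLDA1 were at least 1 log2 unit lower in LM2 than in SN12C, and EGFR, ERRFI1 and PHLDA1 were that much lower on the LM1 array. No member was higher by as much in either line on the probe set used for the gene. A difference of that size, downward, was found in 1.26% of the 15024 genes tested for LM2 and in 1.94% for LM1. After Benjamini-Hochberg adjustment in limma over all tested genes, no member and no other gene passed 0.05 in any of the 3 comparisons of lines (0% for LM2 against SN12C, 0% for LM1 against SN12C and 0% for LM2 against LM1). At an unadjusted p under 0.05, limma gave 2 members for LM2 against SN12C, beside 1737 of all genes (11.6%), and 4 members for LM1 against SN12C, beside 3325 (22.1%). The LM1 comparisons use the same SN12C arrays as the LM2 comparison and take their spread from the replicated lines, since LM1 has 1 array.

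**Figure D1:**
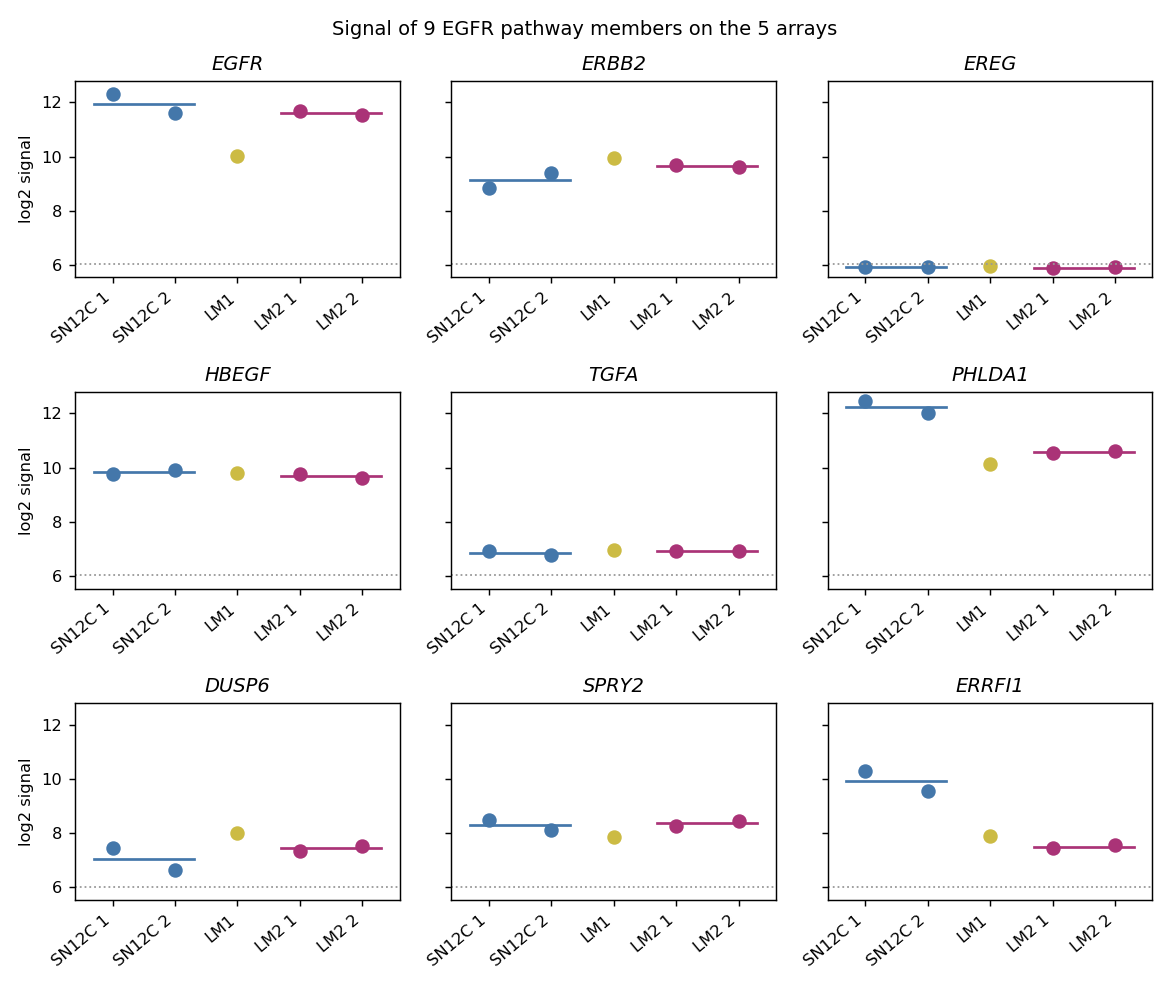
Log2 signal of the 9 measured members on each of the 5 arrays, 1 probe set per gene (the one with the highest mean). Points are arrays, horizontal lines are means of the 2 replicates, and the dotted line is the filter at 6.03. ERRFI1 and PHLDA1 sit lower on the LM1 and LM2 arrays than on both SN12C arrays, EGFR is low on the LM1 array, and EREG lies under the filter throughout.

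ERRFI1, the inhibitor that binds EGFR itself, had signals of 10.27 and 9.55 on the SN12C arrays, 7.91 on the LM1 array, and 7.43 and 7.56 on the LM2 arrays. All 3 arrays of the metastatic lines lay below both SN12C arrays, and LM2 lay below LM1. The LM2 mean was 7.5 ± 0.09 (SD, n = 2) against 9.91 ± 0.51 (SD, n = 2) in SN12C, a difference of -2.41 ± 0.29 log2 units (SE), or 5.33-fold lower signal. This was 3.34 times the gap between the SN12C replicates and the 24th lowest difference of all tested genes, with a limma adjusted p of 0.238. LM1 differed from SN12C by -2.0 ± 0.36 (SE; limma adjusted p = 0.122), 4.01-fold lower. The step from LM1 to LM2 was -0.41 (limma adjusted p = 0.705). Against SN12C replicate 2 alone, the parental array with the lower signal, the LM2 difference was -2.05, and against replicate 1 alone it was -2.78. For LM1 these differences were -1.64 and -2.36. With either SN12C array left out, the LM2 replicates are the only source of the spread, so such fits are given by their differences alone. ERRFI1 was measured by 1 probe set, on chromosome 1.

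PHLDA1 was measured by 6 probe sets on chromosome 12, of which 217996_at had the highest signal. That probe set read 12.45 and 12.02 on the SN12C arrays, 10.13 on LM1, and 10.54 and 10.60 on LM2. SN12C was high on both arrays, and the other 3 arrays lay within 0.48 log2 units of each other below it. The LM2 mean was 10.57 ± 0.04 (SD, n = 2) against 12.24 ± 0.31 (SD, n = 2), a difference of -1.66 ± 0.19 log2 units (SE; limma adjusted p = 0.225), or 3.16-fold lower, and 3.8 times the SN12C gap. LM1 differed from SN12C by -2.11 ± 0.23 (SE; limma adjusted p = 0.0964), 4.31-fold lower, and LM2 from LM1 by 0.45 (limma adjusted p = 0.459). Against SN12C replicate 2 alone the LM2 difference was -1.44 and the LM1 difference -1.89. Against replicate 1 alone they were -1.88 and -2.33.

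All 6 PHLDA1 probe sets, which share a target gene, were lower on both LM2 arrays than on both SN12C arrays, with differences from -1.66 to -0.34. Over all 41091 probe sets with 1 gene, 12.4% lay below in this way. For 217997_at the LM2 difference was -1.61, for 217999_s_at -1.35, for 218000_s_at -1.09, for 217998_at -0.92 and for 225842_at -0.34. With the median of the PHLDA1 probe sets in place of the highest one, the LM2 difference was -0.76. On the LM1 array 5 of the 6 were below both SN12C arrays, and 4 were the lowest of all 5 arrays. The LM1 differences ran from -2.72 for 218000_s_at to 0.20 for 225842_at, the one probe set that read higher on LM1 (9.78) than on SN12C (9.73 and 9.42). The probe sets of PHLDA1 thus shared a direction in LM2 and not in LM1, the array with the high 3′ to 5′ ratios.

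**Figure D2:**
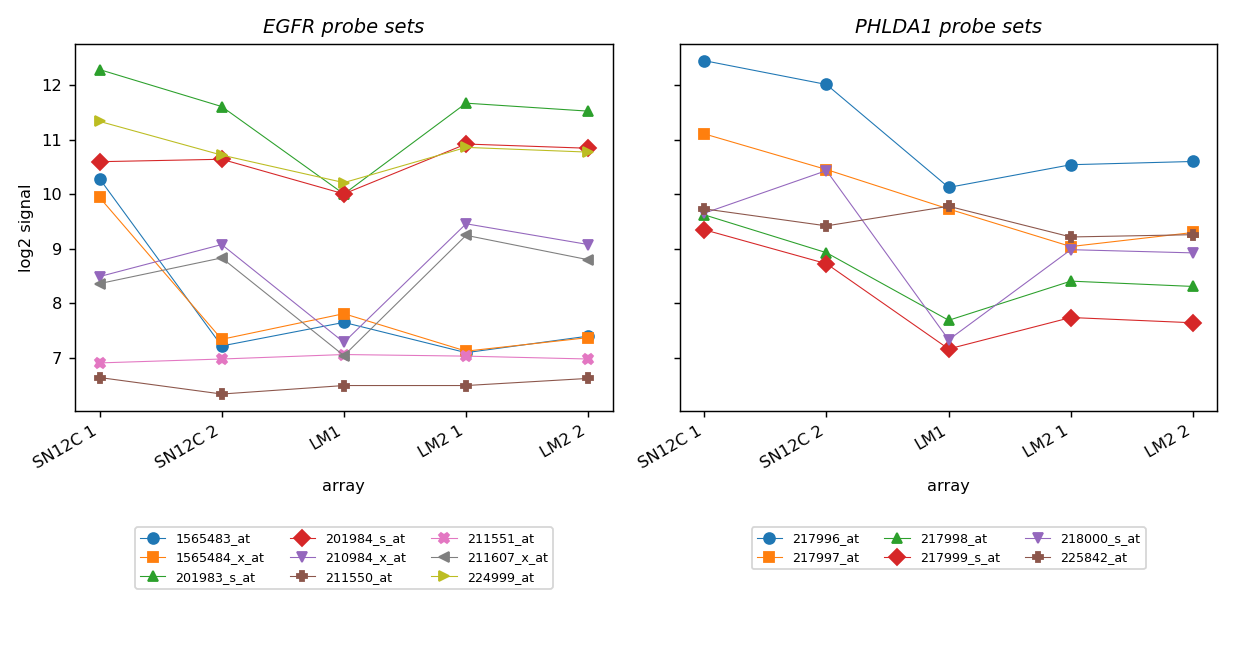
Log2 signal of the 9 EGFR probe sets (left) and the 6 PHLDA1 probe sets (right) on the 5 arrays. Each symbol shape and colour is 1 probe set, and the arrays stand along the horizontal axis. Thin lines join the values of 1 probe set and imply no order. The PHLDA1 probe sets are lower in LM2 than in SN12C, while 5 EGFR probe sets have their lowest value on the LM1 array and 2 (1565483_at and 1565484_x_at) are high on SN12C replicate 1 alone.

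DUSP6, the ERK phosphatase, did not follow ERRFI1 and PHLDA1. Its signal was 7.45 and 6.64 in SN12C, 7.99 in LM1, and 7.36 and 7.52 in LM2. The LM2 arrays overlapped the SN12C arrays, which lay 0.81 log2 units apart, and LM1 was the highest. LM2 differed from SN12C by 0.39 ± 0.33 (SE; limma adjusted p = 0.64) and LM1 by 0.94 ± 0.40 (SE; limma adjusted p = 0.303). Without SN12C replicate 2 the LM2 difference was -0.013, so its direction rests on that array. The 3 DUSP6 probe sets gave LM2 differences from 0.25 to 0.39. In LM1 208892_s_at was also higher than SN12C, by 0.65, whereas 208893_s_at differed by -0.34.

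SPRY2, the Sprouty inhibitor, had 1 probe set, on chromosome 13. It read 8.48 and 8.13 in SN12C, 7.86 in LM1, and 8.27 and 8.46 in LM2. LM2 fell within the SN12C range and LM1 was lowest. The LM2 difference was 0.06 ± 0.17 (SE; limma adjusted p = 0.878), -0.12 without SN12C replicate 2 and -0.071 after a further quantile normalization. The LM1 difference was -0.44 ± 0.21 (SE; limma adjusted p = 0.344).

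EGFR, on chromosome 7, read 12.29 and 11.61 in SN12C, 10.01 in LM1, and 11.67 and 11.53 in LM2 on its brightest probe set, 201983_s_at. The LM2 arrays overlapped SN12C and the LM1 array was lowest. LM2 averaged 11.60 ± 0.10 (SD, n = 2) and SN12C 11.95 ± 0.48 (SD, n = 2), a difference of -0.35 ± 0.28 (SE; limma adjusted p = 0.637), which was -0.011 against SN12C replicate 2 alone. LM1 differed from SN12C by -1.95 ± 0.34 (SE; limma adjusted p = 0.12), 3.85-fold lower and the 57th lowest difference of all genes. LM2 exceeded LM1 by 1.59 ± 0.34 (SE; limma adjusted p = 0.209). Without SN12C replicate 2, the LM1 difference was -2.29, and without replicate 1 it was -1.61. With probe sets of the _s_at and _x_at types left out, which can bind several transcripts, the LM1 difference was -0.81.

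The 9 EGFR probe sets fell into 3 patterns. A set of 5 (201983_s_at, 201984_s_at, 210984_x_at, 211607_x_at and 224999_at) had its lowest value on LM1, with LM1 differences between -1.95 and -0.61. A pair, 1565483_at and 1565484_x_at, read 10.29 and 9.94 on SN12C replicate 1 but 7.22 and 7.34 on SN12C replicate 2, so that the parental replicates differed by 3.07 and 2.61 log2 units. On the LM1 and LM2 arrays this pair stayed between 7.09 and 7.81, near SN12C replicate 2. The other two, 211550_at and 211551_at, lay between 6.33 and 7.06 on every array. Between LM2 and SN12C the EGFR probe sets differed by -1.51 to 0.48, and 201984_s_at alone had LM2 arrays that did not overlap SN12C (10.92 and 10.85 against 10.60 and 10.64).

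ERBB2, the partner receptor on chromosome 17, read 8.85 and 9.39 in SN12C, 9.96 in LM1, and 9.69 and 9.63 in LM2 on 216836_s_at. The arrays of both metastatic lines were above both SN12C arrays, and LM1 was highest. The LM2 mean was 9.66 ± 0.04 (SD, n = 2) against 9.12 ± 0.39 (SD, n = 2), a difference of 0.54 ± 0.22 (SE; limma adjusted p = 0.511), just under the gap between the SN12C replicates. LM1 differed by 0.84 ± 0.27 (SE; limma adjusted p = 0.223). Without SN12C replicate 2, the differences were 0.81 for LM2 and 1.11 for LM1. Without SN12C replicate 1, they were 0.27 for LM2 and 0.57 for LM1.

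A further ERBB2 probe set, 210930_s_at, read 5.44 and 6.91 in SN12C, 5.54 in LM1, and 7.82 and 7.03 in LM2. It was above both SN12C arrays in LM2, but its signals on SN12C replicate 1 and LM1 lay below the filter of 6.03. Its differences of 1.25 for LM2 and -0.63 for LM1 therefore rest in part on signals under the filter, and no direction for LM1 is read from them. The last one, 234354_x_at, lay between 4.89 and 4.99 on all arrays and was not tested.

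HBEGF, heparin-binding EGF-like growth factor, on chromosome 5, read 9.76 and 9.92 in SN12C, 9.80 in LM1, and 9.75 and 9.64 in LM2. LM2 replicate 1 lay just under SN12C replicate 1, so the lines did not overlap although their values were close. The LM2 difference was -0.14 ± 0.10 (SE; limma adjusted p = 0.633) and the LM1 difference -0.03 ± 0.13 (SE; limma adjusted p = 0.919). Of the other HBEGF probe sets that were tested, 38037_at gave -0.11 for LM2 and -0.07 for LM1. By contrast, 244857_at gave 0.04 for LM2, with overlapping arrays, and -0.33 for LM1, its lowest array.

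TGFA, transforming growth factor alpha, on chromosome 2, had signals of 6.93 and 6.79 in SN12C, 6.98 in LM1 and 6.93 on both LM2 arrays. LM2 equalled SN12C replicate 1. The differences were 0.07 ± 0.09 for LM2 (SE; limma adjusted p = 0.723) and 0.11 ± 0.11 for LM1 (SE; limma adjusted p = 0.639), and on 205015_s_at they were -0.23 and -0.10. EREG (epiregulin), on chromosome 4, stayed below the filter on both of its probe sets. On the brighter, 1569583_at, it read 5.94 and 5.94 in SN12C, 5.97 in LM1, and 5.88 and 5.94 in LM2, so no level above the filter was measured in any line.

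**Figure D3:**
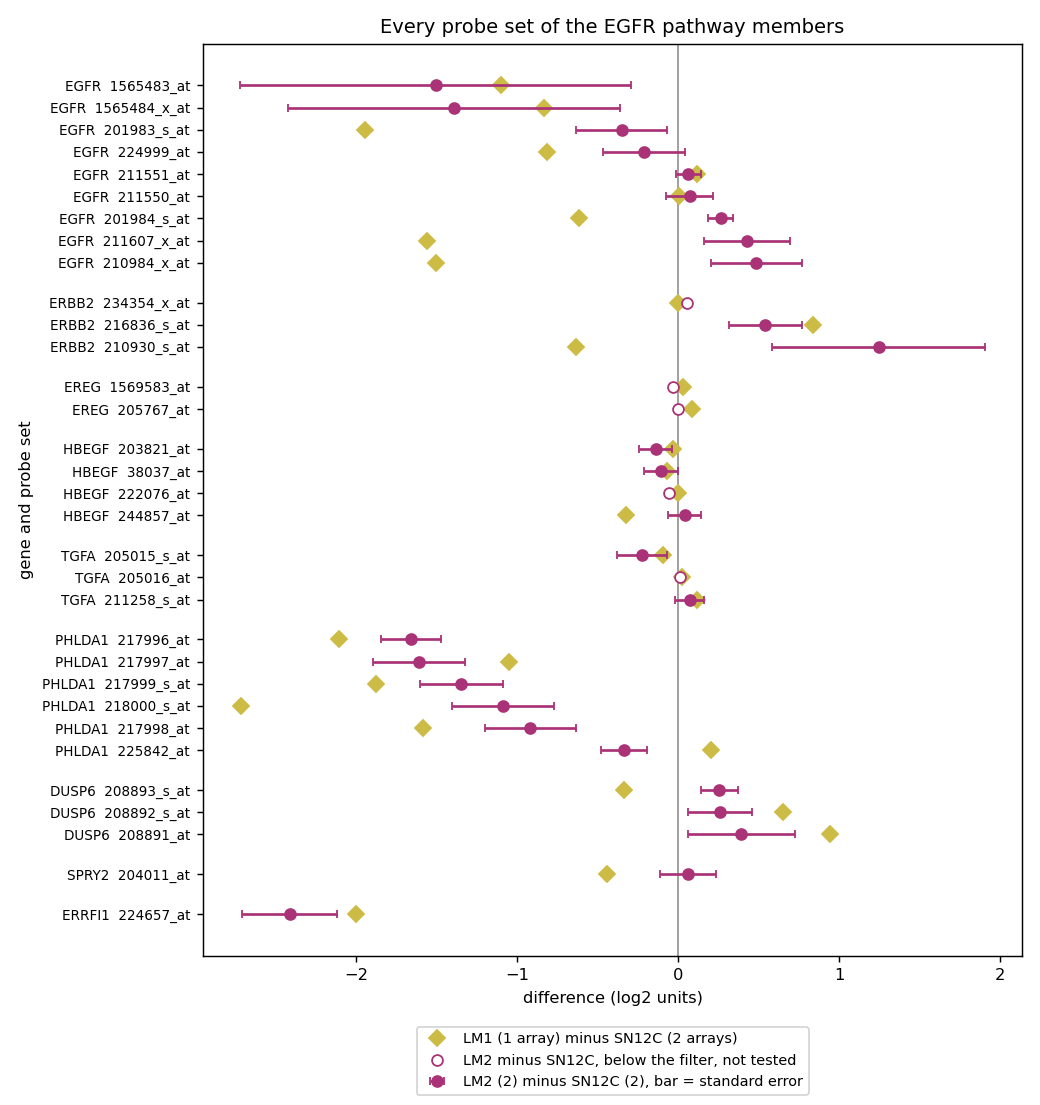
Difference from SN12C in log2 units for each of the 32 probe sets of the members. Circles are LM2 with the limma standard error as a bar (open circles without a bar lay below the filter), diamonds are the 1 LM1 array. All 6 PHLDA1 probe sets and ERRFI1 lie left of 0 for LM2, while EGFR probe sets spread from -1.51 to 0.48.

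By the position of their arrays, 3 tested members (ERRFI1, PHLDA1 and HBEGF) had both LM2 arrays below both SN12C arrays and ERBB2 had both above. Over all tested genes, 14.1% were below in this way and 25.3% above. The other 4 (EGFR, TGFA, DUSP6 and SPRY2) overlapped. The 6 tested members other than ERRFI1 and PHLDA1 had LM2 differences between -0.35 and 0.54, each smaller than the gap between the SN12C replicates of that gene. The median LM2 difference was -0.04 over the 8 members and 0.03 over all tested genes.

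On the LM1 array, 4 members (EGFR, PHLDA1, SPRY2 and ERRFI1) were below both SN12C arrays, against 20.8% of all tested genes. The 3 members ERBB2, TGFA and DUSP6 were above both, against 45.2% of all tested genes, and HBEGF lay between them. The median LM1 difference was -0.24 over the members and 0.09 over all genes. Of the 32 probe sets of all members, 12 had their lowest value on LM1, 5 of them of EGFR and 4 of PHLDA1. The same held for 20.6% of all probe sets with 1 gene, and probe sets of a gene are not independent.

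**Figure D4:**
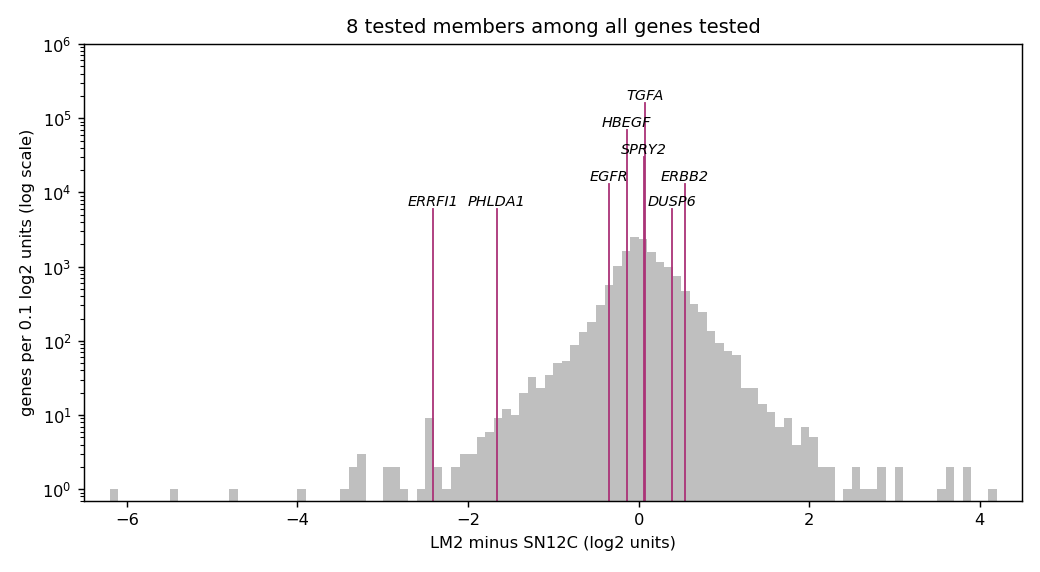
Histogram of LM2 minus SN12C over the 15024 genes tested, in bins of 0.1 log2 units with a logarithmic count axis. Vertical lines mark the 8 tested members, at heights chosen only to separate the labels. ERRFI1 (-2.41) and PHLDA1 (-1.66) lie in the lower tail, and the other 6 lie between -0.35 and 0.54.

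The surrounding pathway was described through 5 lists of 83 genes written from general knowledge, with earlier results of these data known. Of these, 74 had a probe set assigned to no other gene and 64 were tested, and the other genes are not analysed here. By limma's adjusted p over all genes, 0 of the 64 passed in either direction for LM2 or LM1, with 12 and 16 at an unadjusted p under 0.05, beside 11.6% and 22.1% of all tested genes. For LM2 against SN12C, 16 of the 64 were below without overlap and 15 above, beside 14.1% and 25.3% of all tested genes, and 33 overlapped. Their median LM2 difference was -0.07, against 0.03 over all tested genes.

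Among the other ERBB receptors and ligands, 3 of 9 were tested and 0 passed. NRG1, a neuregulin ligand that binds ERBB3 and ERBB4, read 9.33 and 9.85 in SN12C, 11.16 in LM1, and 10.66 and 10.91 in LM2. On this brightest probe set, LM2 and LM1 were above both SN12C arrays, with an LM2 difference of 1.19 ± 0.23 (SE; limma adjusted p = 0.293). The other 5 NRG1 probe sets gave LM2 differences from 0.06 to 1.23. Their LM1 differences ran from -0.17 to 0.80, beside 1.57 on the brightest probe set. ERBB3, the receptor that signals mainly through its partners, had an LM2 difference of -0.21.

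Of the genes for ligand shedding and trafficking, 9 of 10 were tested, with 3 below, 2 above and 4 overlapping. The shares over all tested genes were 14.1% below and 25.3% above. ADAM17, the main sheddase of TGFA, HBEGF and AREG, read 10.46 and 9.68 in SN12C, 9.85 in LM1, and 9.30 and 9.14 in LM2, a difference of -0.85 (limma adjusted p = 0.468). LM2 was below SN12C on all 3 ADAM17 probe sets by their means, the others at -0.77 and -1.05. RHBDF1, an inactive rhomboid that helps ADAM17 to mature, read 8.26 and 8.47 in SN12C against 9.23 and 8.96 in LM2. The difference was 0.73 (limma adjusted p = 0.306). The other RHBDF1 probe set gave 0.21 for LM2. In LM1 it gave -0.22, against 0.59 on the brighter probe set.

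Of the adaptors and RAS-ERK core genes, 15 of 20 were tested, with 2 below, 6 above and 7 overlapping, and a median of -0.02. All tested genes had 14.1% below and 25.3% above. RPS6KA3, the ERK-activated kinase RSK2, read 9.21 and 10.17 in SN12C, 9.80 in LM1, and 10.82 and 10.86 in LM2. Its LM2 difference was 1.15 (limma adjusted p = 0.432), near the gap of 0.96 between the SN12C replicates. The other RPS6KA3 probe set gave 0.69 for LM2.

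The other feedback inhibitors had 19 of 24 genes tested, with 7 below, 3 above and 9 overlapping, and a median LM2 difference of -0.24. Over all tested genes, 14.1% lay below and 25.3% above. IL17RD, an inhibitor of receptor signalling to ERK also called SEF, read 7.5 and 6.66 in SN12C, 6.55 in LM1, and 5.77 and 5.75 in LM2, where it lay under the filter. The difference was -1.32 (limma adjusted p = 0.362). On the other IL17RD probe set, which did not pass the filter, it was -0.35. SOCS4, a SOCS-box protein that promotes EGFR turnover, read 7.33 and 8.81 in SN12C against 9.18 and 9.09 in LM2. The difference of 1.07 (limma adjusted p = 0.604) was smaller than the SN12C gap of 1.48. The other SOCS4 probe set gave 1.42 for LM2. By their means, 13 of the 19 inhibitors were lower in LM2 and 6 higher, so they did not all share a direction. Of all 15024 tested genes, 6609 were lower in LM2 by their means and 8375 higher.

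Of the ERK output genes, 18 of 20 were tested, with 4 below, 3 above and 11 overlapping, and a median of -0.09. Again 14.1% of all tested genes lay below and 25.3% above. IER3, an early response gene induced by ERK, read 12.77 and 11.53 in SN12C, 10.78 in LM1, and 10.61 and 10.64 in LM2. All 3 metastatic-line arrays were below SN12C, with an LM2 difference of -1.52 (limma adjusted p = 0.42) beside an SN12C gap of 1.24.

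**Figure D5:**
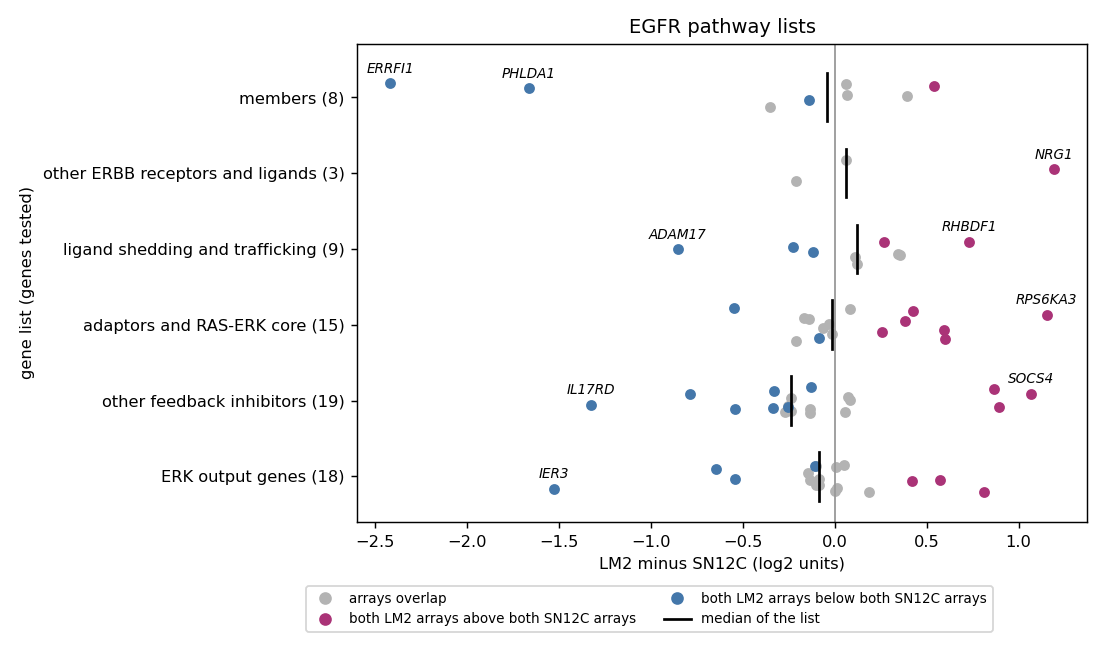
LM2 minus SN12C in log2 units for each tested gene of the members and of the 5 pathway lists, with the number tested in brackets. Blue points have both LM2 arrays below both SN12C arrays, purple points both above, grey points overlap, black bars are list medians, and the vertical scatter within a list has no meaning. The list medians lie between -0.24 and 0.12, with ERRFI1 and PHLDA1 farthest to the left.

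Genes with the pattern most like a member were found as the smallest Euclidean distance between the 5 log2 values, each gene centred on its own mean. For ERRFI1, the member with the largest LM2 difference, they were SPP1 (distance 0.285), SLC16A7 (0.392), HMOX1 (0.401), COL8A1 (0.475) and ZNF781 (0.557). For PHLDA1, the member with the largest LM1 difference in size, they were PRKCE (0.282), DKK1 (0.335), ZNF781 (0.40), RND3 (0.432) and LAT2 (0.562). ZNF781 stood in both groups. It read 7.09 and 6.77 in SN12C but 4.86 in LM1, and 4.87 and 4.98 in LM2, under the filter of 6.03. In LM2, SPP1 (5.77 and 5.95) and COL8A1 (5.75 and 5.39) were also under the filter, as was SLC16A7 on replicate 1 (5.97). The low values of these genes therefore rest in part on signals under the filter. For DUSP6, the member with the highest LM1 difference, they were MYCT1 (0.0604), MICAL2 (0.128), CIRBP (0.147), COL13A1 (0.189) and KCNMA1 (0.194). These distances run over 5 arrays of 3 lines and share the SN12C and LM1 array differences given above.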

How the data were processed

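RNA of 5 cultures was hybridised to Affymetrix arrays, 6 ug of total RNA per array, per the labels' protocols. The deposited values are log2 signals, 1 for each probe set on each array. RMA and Partek were used, per the submitters' processing notes, with versions not given in the sources used here. RMA is meant to remove array-wide differences in signal, yet some remained in the deposited values. Array medians ran from 6.506 (LM1) to 6.572 (SN12C replicate 1). The SD over probe sets ran from 2.115 (SN12C replicate 1) to 2.252 (SN12C replicate 2). The number of arrays limits the precision. Many deposited values are identical between replicates (4.75% of tested genes in SN12C and 14.2% in LM2), which shrinks their estimated spread.

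Of 54675 probe sets, 62 controls were left out, 41091 had 1 gene in the platform table, 1801 several and 11721 none, and only those with 1 gene were used. Of these, 41037 matched a gene table of GRCh38.p14, used for chromosomes and current symbols, of which 0 changed. The probe set with the highest mean stood for each gene. Genes below the 40th percentile of all signals (6.03) on more than 3 arrays were not tested. limma 3.58.1 (lmFit and eBayes, R 4.3.3) was fitted with 1 mean per line over all 5 arrays, with Benjamini-Hochberg adjustment over 15024 genes at 0.05, two-sided, and 2 residual and 1.3 prior degrees of freedom. A second limma fit over all probe sets gave the probe sets' own values. The smallest p an exact permutation test of LM2 against SN12C can give is 0.333. The labels call the replicates biological and say no more, so the p-values reflect the spread among these arrays, which may be technical. The fit was checked on simulated data with known differences. Figures were drawn with matplotlib 3.10.9.

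Members, lists and the rule for named genes (all members, and per list up to 4 genes with the largest LM2 differences of at least 1 log2 unit, or 0.5 where none reached it, without overlap of arrays) were chosen with earlier results of these data known. ERBB3 was named outside this rule. The rule for genes with a similar pattern named the largest LM1 difference, read as signed (DUSP6) and, after the values were seen, by size (PHLDA1). RefSeq promoter windows were matched by symbol, 14 for the 10 members. Alternatives covered the filter, the choice of probe set, normalization, options of eBayes, fits of fewer arrays, leaving out each replicate, and a replicate block.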

Additional observations from a re-analysis of the deposited data

Results flagged for a closer look

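For 3 probe sets the LM1 array lay on one side of both SN12C arrays and both LM2 arrays on the other side. EGFR 201984_s_at differed from SN12C by -0.61 in LM1 and 0.26 in LM2. DUSP6 208893_s_at differed by -0.34 in LM1 and 0.25 in LM2. PHLDA1 225842_at differed by 0.20 in LM1 and -0.34 in LM2, opposite in direction to the other PHLDA1 probe sets in LM1. The difference between the 2 effects equals LM2 minus LM1, for which limma over all probe sets gave adjusted p = 0.0998 for 201984_s_at, 0.163 for 208893_s_at and 0.224 for 225842_at, so none passed 0.05. The LM1 values rest on 1 array.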

How the results depend on the processing

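For the 8 tested members, 315 of 335 alternative values kept direction and side of the 0.05 threshold, and 12 turned direction. The rest passed it with 1 SN12C replicate left out, where the LM2 pair gives all the spread. Changes of the filter or the eBayes options, and the replicate block, leave a difference as it is. The direction of many of the 335 values was therefore fixed in advance, and their number is no measure of stability. ERRFI1 differed by -2.78 to -2.05 in LM2 and PHLDA1 by -1.88 to -0.76 across the alternatives run, EGFR by -2.29 to -0.81 in LM1. With the median of the probe sets, TGFA was -0.23 in LM2 and -0.10 in LM1, ERBB2 -0.63 in LM1, and LM2 minus LM1 was 1.88 for ERBB2 (both with LM1 signal under the filter), 0.16 for HBEGF and 0.27 for DUSP6. Quantile normalization again gave -0.071 for SPRY2 in LM2, and centring gave 0.015 for HBEGF in LM1. Leaving out 1 replicate gave -0.013 to 0.80 for DUSP6 and -0.12 to 0.24 for SPRY2 in LM2, and -0.11 to 0.047 for HBEGF in LM1. The cause of these turns was not tested. Leaving out 1 replicate, limma called 0 to 3824 genes for LM2 against SN12C (3824 without SN12C replicate 2, 0 without replicate 1), 0 to 4823 for LM1 against SN12C (4823 without SN12C replicate 2, 1979 without replicate 1) and 0 to 1273 for LM2 against LM1, and 4 to 7 members did not overlap (7 without SN12C replicate 1, where 1 array stands for the line). The fit of LM2 and LM1 arrays only also called 1273, from the spread of the LM2 pair alone. Other alternatives called 0. Leaving out an array can only add members without overlap, and the matching share of all tested genes was not computed. For scale, the 1 LM1 array lay below both SN12C arrays in 20.8% of all tested genes and above both in 45.2%. The 4 to 7 members without overlap are therefore not read as wider separation. With a replicate block, 0 genes were called for LM2 against SN12C, and ERRFI1 had adjusted p = 0.458 at -2.41. Same-numbered deviations of SN12C and LM2 correlated at 0.0923 across genes, which are not independent. With 1 replicate difference per line, this value cannot show whether replicate numbers pair the arrays.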
